A study of Mus musculus with 12 samples.

Results

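The experiment asked whether the response of mouse 4T1 mammary carcinoma cells to FGF differed between cells given an ETV4 guide and cells given a control guide. 4T1 is an established line from a mammary tumour of a BALB/c mouse, and all cells were nucleofected with Cas9 and a guide and grown embedded in collagen I gels in medium with 2% serum. The 12 libraries of polyA RNA, 12 of the 12 in the series, formed 4 groups of 3, chosen by genotype and treatment as labelled: ETV4 KO with FGF (KO+FGF), ETV4 KO (KO), control with FGF (control+FGF), and control. FGF cultures were kept for 4 days with FGF10 (25 ng/ml) and FGF2 (40 ng/ml), after a first day with the same FGFs in 10% serum that the labels describe for the FGF experiments alone. The higher serum of that day and the FGFs therefore cannot be told apart. Whether the ETV4 KO cells were 1 clone or a mixed population is not stated in the labels, nor is it stated which libraries came from gels at 1.2 or at 2.4 mg/ml collagen. Since separate cultures are not stated for the replicates, the p-values reflect variation among these libraries, part of which may be technical.

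FGF ligands bind receptor tyrosine kinases on the cell surface and signal in large part through the RAS and ERK cascade, which switches on immediate early genes and then a set of feedback inhibitors that dampen the cascade. ETV4, with ETV1 and ETV5, forms the PEA3 group of ETS transcription factors, which are known as targets and effectors of FGF and ERK signalling in branching epithelia. In mammary epithelium and its tumours these factors are known for driving matrix metalloproteinase genes and cell invasion. Invasive cells use such secreted proteases to cut collagen, laminin and other matrix proteins around them.

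The quantity described here is the interaction: the log2 change with FGF in knockout cells minus the log2 change with FGF in control cells. A value above 0 means that FGF raised a transcript more, or lowered it less, in knockout cells. The same number is the knockout difference with FGF minus the knockout difference without FGF. Levels are CPM, counts scaled to a common library size with TMM factors, and a gene was called where the Benjamini-Hochberg adjusted p of edgeR's quasi-likelihood test over all tested genes was under 0.05. In bulk RNA, fewer cells of a type and less RNA per cell cannot be told apart.

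Library totals ran from 18229429 to 23193244 counts. Epithelial markers were present, with 10 of 10 above a mean of 1 CPM. Of 10 markers each of fibroblasts, leukocytes and endothelium 1 passed that level, Pdgfra, Cd68 and Egfl7 in that order. Pdgfrb, Dcn, Lum, Adgre1, Cd3e and Kdr were at 0 in all libraries. The summed level was 8.03 to 16 CPM for fibroblast, 6.03 to 11.5 for leukocyte and 3.97 to 6.97 for endothelial markers. The summed epithelial level was 5568 to 5650 CPM in KO+FGF, 5918 to 8351 in KO, 5853 to 6563 in control+FGF and 5654 to 5849 in control. The highest sum came from Etv4_KO replicate 2, which stood apart from its group. Ribosomal protein genes took 7.68% of counts there, against 5.67% and 5.93% in Etv4_KO replicates 1 and 3. Deviations were taken from the mean of the other replicates of the group. Across genes those of this library correlated with exon length at a Spearman rho of -0.53 and with GC content at 0.56. The interaction was therefore fitted with all 12 libraries and again with the 11 that remain without it. Single libraries are named by group and replicate, as in Etv4_KO_FGF replicate 1 for KO+FGF.

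The targeted gene and its relatives had no called dependence on genotype in their FGF change. Etv4 (mm10 chr11:101769742-101785371) was at 115, 120 and 113 CPM in KO+FGF, 116, 159 and 116 in KO, 154, 173 and 167 in control+FGF, and 168, 162 and 167 in control. The transcript was present in every knockout library, and within either genotype the libraries with FGF overlapped those without. The Etv4 interaction was log2 -0.16 (SE 0.15) with 12 libraries and 0.01 (SE 0.08) with 11, at edgeR adjusted p = 0.629 and 0.986. Mutations made by Cas9 can leave transcript levels unaltered, so these values do not test loss of the protein. Etv5 was at 33 ± 1.42 CPM in KO+FGF, 32.9 ± 2.65 in KO, 68.8 ± 0.234 in control+FGF and 61.6 ± 0.998 in control (SD, n = 3 each). Its interaction was log2 -0.16 (SE 0.10), edgeR adjusted p = 0.54, and -0.20 (SE 0.09) with 11 libraries, edgeR adjusted p = 0.311. Etv1 was at 0.16 (SE 0.18) and -0.01 (SE 0.08), turning sign without Etv4_KO replicate 2.

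With all 12 libraries, 2 of 12079 genes were called, both with a larger FGF change in knockout cells, which is 0.0166% of the genes tested. They were the metalloproteinases Mmp9 (gelatinase B, which cuts denatured collagen and basement membrane collagen) and Mmp13 (a collagenase that cuts fibrillar collagen). Mmp9 (mm10 chr2:164940780-164955850) was at 242, 232 and 216 CPM in KO+FGF, 77.5, 89.3 and 74.8 in KO, 175, 183 and 186 in control+FGF, and 123, 127 and 119 in control. With FGF the knockout libraries lay above the control libraries, and without FGF they lay below them, with no overlap in either condition. Mmp9 rose 2.86-fold with FGF in knockout cells, where 1.47% of genes were called higher with FGF, and 1.48-fold in control cells, where 0.257% were. This is an interaction of log2 0.95 (SE 0.11; edgeR adjusted p = 0.0123). Without Etv4_KO replicate 2 the interaction was log2 1.03 (SE 0.08; edgeR adjusted p = 6.17e-08).

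Mmp13 (mm10 chr9:7272514-7283331) was at 73.7, 78.1 and 68.4 CPM in KO+FGF, 35.7, 28.4 and 36.8 in KO, 58.6, 51 and 53.7 in control+FGF, and 49.4, 54.1 and 54.6 in control. It crossed in the same manner: the knockout libraries lay above the control libraries with FGF and below them without it, while the 2 control groups overlapped. The FGF change was 2.18-fold in knockout cells, and 1.03-fold in control cells, where it was not called (edgeR adjusted p = 1). The interaction was log2 1.08 (SE 0.14; edgeR adjusted p = 0.0243), and log2 0.97 (SE 0.10; edgeR adjusted p = 3.78e-06) without Etv4_KO replicate 2. Both calls with 12 libraries depended on single libraries. Leaving out any 1 of 7 libraries, Etv4_KO_FGF replicate 1 or 2, control_FGF replicate 1 or 3, or control replicate 1, 2 or 3, ended both calls, and without control_FGF replicate 2 the Mmp13 call was lost (edgeR adjusted p = 0.153). The sizes moved less, between log2 0.90 and 1.03 for Mmp9 and 0.97 and 1.15 for Mmp13, and the largest edgeR adjusted p of Mmp9 was 0.091.

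The sequence upstream of Mmp13 is shown because Mmp13 was 1 of the 2 genes called with and without Etv4_KO replicate 2, and because the human MMP13 promoter is known for an AP-1 site beside an ETS site. It covers the 250 bases before the RefSeq start on the + strand of GRCm38.p6, chr9:7272264-7272513, and overlaps no other annotated gene. Capitals mark matches to the AP-1 site TGANTCA and to the PEA3 core AGGAAG, both searched on both strands.
Mmp13: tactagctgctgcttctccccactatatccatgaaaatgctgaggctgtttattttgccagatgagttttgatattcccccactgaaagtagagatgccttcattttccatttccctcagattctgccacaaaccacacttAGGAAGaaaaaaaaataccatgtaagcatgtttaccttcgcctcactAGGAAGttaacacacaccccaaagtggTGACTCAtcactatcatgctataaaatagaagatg
TGACTCA lay at bases -35 to -29 from the start, and AGGAAG at -109 to -104 and -62 to -57, all on the + strand. No CCGGAA, the ETS core searched alongside, was in this window. TGANTCA was in the 250 upstream bases of 7.82% of 27025 genes with a RefSeq promoter, CCGGAA in 13.6% and AGGAAG in 32.3%. These genes include ones that were not tested here, and shares among tested genes alone were not computed. They are therefore not a matched background for the called genes. AGGAAG was added to the search after the sequence had been seen. Among the genes called without Etv4_KO replicate 2, 67 of 88 with an interaction above 0 had a promoter entry, and 6 (8.96%) held TGANTCA, 15 (22.4%) CCGGAA and 19 (28.4%) AGGAAG. Of 25 of 32 genes below 0, 4 (16%), 2 (8%) and 11 (44%) held them in that order. A match of letters is a description, not a binding site.

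**Figure D1:**
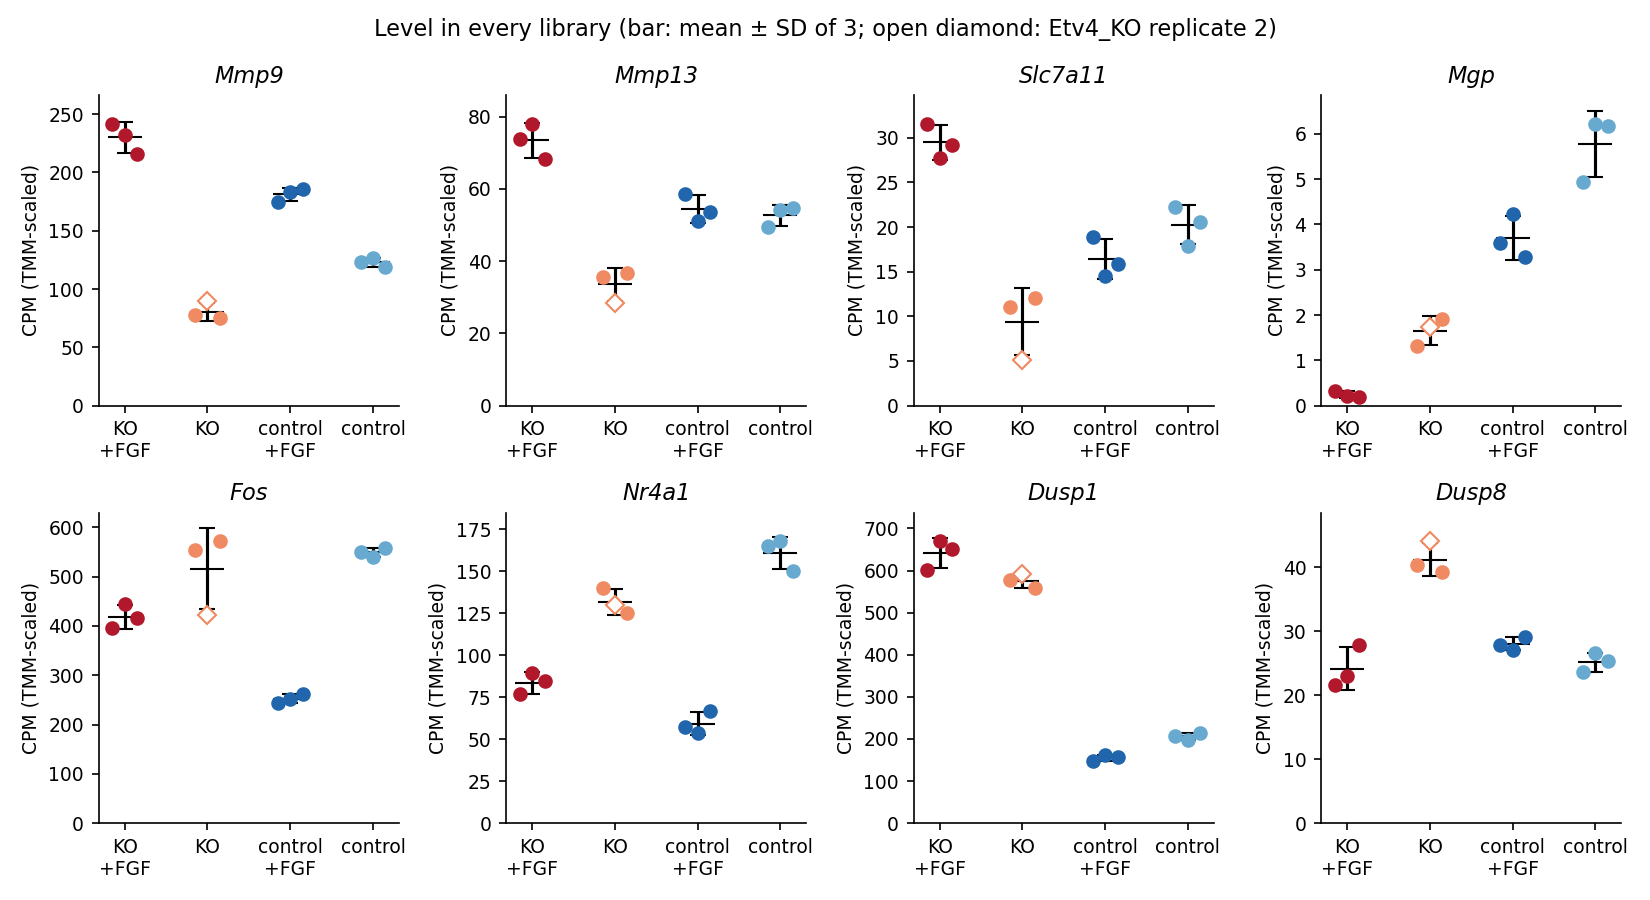
Level of 8 genes in each of the 12 libraries, in TMM-scaled CPM on linear axes from 0, by group from knockout with FGF to control; bars give the mean ± SD of 3 libraries and the open diamond is Etv4_KO replicate 2. In Mmp9, Mmp13 and Slc7a11 the knockout libraries lie above the control libraries with FGF and below them without, and in Fos and Nr4a1 the gap between the FGF and no-FGF libraries is widest in control cells.

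Without Etv4_KO replicate 2, 120 of 12235 genes were called (0.981%), 88 with an interaction above 0 (0.719%) and 32 below (0.262%). These 120 included both genes called with 12 libraries, which is 100% of that list and 1.67% of this one. In the fit of 12 libraries all 120 had the same sign and 113 had an unadjusted p under 0.05. Unadjusted p-values under 0.05 were found in the fit of 12 libraries for 1227 genes (10.2%), 555 of them above 0 (4.59%). In that fit edgeR called 0 genes with a lower FGF change in knockout cells, against 672 at an unadjusted p under 0.05 (5.56%), while DESeq2 called 24, limma-voom 1 and limma-voom with sample quality weights 74. The spread estimate moved with the library: edgeR's biological coefficient of variation was 0.107 with it and 0.0555 without it, and the median SE of an interaction was log2 0.16 and 0.11. Interactions and FGF changes of further single genes are from the fit without this library unless 12 libraries are named, CPM levels are given for all 12, and with 12 libraries Mmp9 and Mmp13 were the only calls by edgeR.

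The commonest pattern among the 88 genes above 0 was a call in knockout cells without one in control cells. FGF raised 57 of them (64.8%) in knockout cells with no call in control cells, and it raised 10 in both, by more in knockout cells. It lowered 9 in both genotypes, by less in knockout cells, and 5 in control cells with no call in knockout cells, while 3 were called in opposite directions and 4 in neither. Of the 32 genes below 0, FGF lowered 18 (56.2%) in knockout cells with no call in control cells, and 4 in both, by more in knockout cells. It raised 7 in control cells with no call in knockout cells and 2 in both, by less in knockout cells, and 1 was opposite. A change that was not called can still be present. Across all genes the FGF change had an SD of log2 0.40 in knockout cells and 0.25 in control cells. These SDs take in every tested gene, low-count ones included, and the knockout change rests on fewer libraries. What part noise has in the larger SD was not tested. FGF changes were called for 950 genes in knockout cells (7.76%) and 343 in control cells (2.8%). In knockout cells 4.78% of genes were called higher with FGF and 2.98% lower, and in control cells 1.59% and 1.22%. With 12 libraries FGF changes were called for 2.42% of genes in knockout cells and 0.488% in control cells. The FGF changes of the 2 genotypes, which share no library, had a Pearson correlation of 0.16 and a Spearman correlation of 0.18 across genes, and 0.13 and -0.00 with 12 libraries; genes are not independent, so no p is given.

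**Figure D2:**
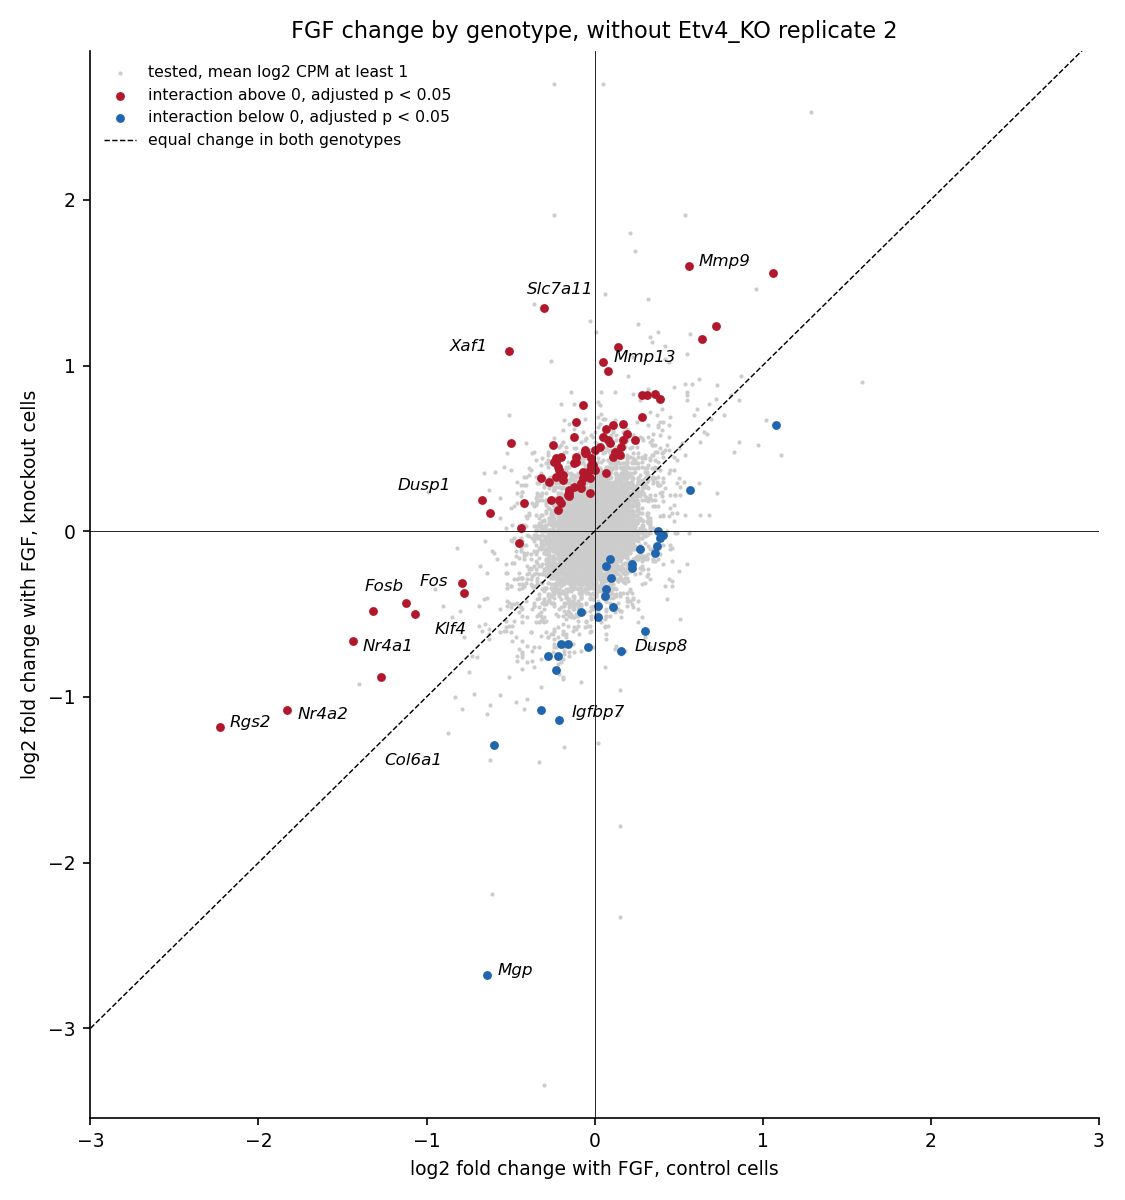
Log2 FGF change in knockout cells (vertical) against that in control cells (horizontal) without Etv4_KO replicate 2, 1 point per gene whose mean log2 CPM was 1 or more; red and blue points are the called interactions above and below 0, and the dashed line is equal change. Red points gather around 0 on the horizontal axis and above 0 on the vertical one, with a second group (Fos, Fosb, Nr4a1, Nr4a2, Klf4, Rgs2) lowered in both genotypes but less in knockout cells.

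Slc7a11, which encodes the cystine importer of the glutathione pathway, had the highest interaction among the 119 called genes whose mean log2 CPM was 1 or more. It was at 31.6, 27.7 and 29.2 CPM in KO+FGF, 11, 5.1 and 12.1 in KO, 18.9, 14.5 and 15.9 in control+FGF, and 22.3, 17.9 and 20.6 in control. Knockout libraries were again above control libraries with FGF and below them without, with Etv4_KO replicate 2 the lowest of the 12. Slc7a11 rose 2.55-fold with FGF in knockout cells and was 0.814-fold in control cells, an interaction of log2 1.65 (SE 0.16; edgeR adjusted p = 2.02e-06). With 12 libraries it was larger, log2 1.93 (SE 0.31), but missed the threshold (edgeR adjusted p = 0.0635). Of the 20 tested NRF2 and glutathione genes the other call was Osgin1, at log2 -0.47 (SE 0.09; edgeR adjusted p = 0.00943), and the list's median was -0.04 beside -0.00 for all genes. Calls above and below 0 made up 0.719% and 0.262% of all genes.

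Besides Slc7a11, the largest calls above 0 among genes called only without Etv4_KO replicate 2 were Xaf1, Rgs2 and Ss18l1. Rgs2, a GTPase-activating protein that shortens G protein signals, was at 2.85, 3.01 and 2.32 CPM in KO+FGF, 6.92, 7.73 and 5.47 in KO, 7.24, 4.95 and 6.05 in control+FGF, and 27.9, 27.5 and 30.7 in control. FGF lowered Rgs2 in both genotypes without overlap, and by less in knockout cells, whose level without FGF was already near that of control cells with FGF. Its interaction was log2 1.05 (SE 0.23; edgeR adjusted p = 0.02), and 0.94 with 12 libraries (edgeR adjusted p = 0.287). Xaf1, an interferon-inducible apoptosis factor, had 1.40 to 2.22 CPM in KO+FGF, 0.794 to 2.10 in KO, 2.93 to 3.64 in control+FGF and 3.49 to 5.57 in control. The knockout groups of Xaf1 overlapped, and its call (log2 1.60, SE 0.39; edgeR adjusted p = 0.0489) held in 9 of 21 further settings of the fit. Ss18l1, a chromatin regulator of the SS18 family, was at log2 1.03 (SE 0.24; edgeR adjusted p = 0.0311), with 7.11 to 7.93 CPM in KO+FGF, 4.08 to 5.30 in KO, 3.74 to 6.19 in control+FGF and 6.75 to 7.67 in control.

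The largest calls below 0 among named genes were Mgp, Igfbp7, Gas2 and Dusp8. Mgp (matrix Gla protein, an inhibitor of calcification) was at 0.327, 0.211 and 0.197 CPM in KO+FGF, 1.31, 1.74 and 1.92 in KO, 3.6, 4.24 and 3.29 in control+FGF, and 4.94, 6.23 and 6.17 in control. The 4 groups of Mgp did not overlap, and its level with FGF was 0.156 times that without in knockout cells and 0.641 times in control cells, where the change was not called. The interaction was log2 -2.04 (SE 0.45; edgeR adjusted p = 0.023), and -2.07 with 12 libraries (edgeR adjusted p = 0.0898). Igfbp7, a secreted binding protein of insulin-like growth factors, was at 2.43 to 3.13 CPM in KO+FGF, 5.37 to 11.5 in KO, 25.7 to 28 in control+FGF and 30 to 32 in control, with an interaction of log2 -0.93 (SE 0.18; edgeR adjusted p = 0.0101). Gas2, an actin-associated protein, was at log2 -0.90 (SE 0.21; edgeR adjusted p = 0.0311). FGF lowered Gas2 in knockout cells, by 0.60 on the log2 scale, and its change in control cells, 0.30, was not called.

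Immediate early genes are the transcription factors and regulators that ERK signalling switches on within minutes. Of 25 tested, 6 were called above 0 (Fosb, Nr4a1, Nr4a2, Fos, Klf4 and Jun) and 2 below (Egr1 and Egr3), where 0.719% and 0.262% of all genes were, while the list's median was log2 0.03, beside -0.00 for all genes. Fos was at 396, 444 and 416 CPM in KO+FGF, 554, 423 and 572 in KO, 244, 251 and 262 in control+FGF, and 549, 540 and 559 in control. FGF lowered Fos by 0.43 on the log2 scale in knockout cells, leaving out Etv4_KO replicate 2 at 423 CPM, which overlapped KO+FGF, and by 1.12 in control cells. The Fos interaction was log2 0.69 (SE 0.07; edgeR adjusted p = 3.69e-06), and 0.82 (SE 0.14) with 12 libraries, where it missed the threshold (edgeR adjusted p = 0.0635).

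The nuclear receptors Nr4a1 and Nr4a2, the AP-1 subunit Fosb and the epithelial factor Klf4 shared that shape. Nr4a1 was at 76.7, 89.7 and 84.4 CPM in KO+FGF, 140, 130 and 125 in KO, 57, 53.7 and 66.8 in control+FGF, and 165, 168 and 150 in control. FGF lowered Nr4a1 by 0.66 on the log2 scale in knockout cells and by 1.44 in control cells, with no overlap in either, an interaction of 0.78 (SE 0.11; edgeR adjusted p = 3.90e-04). The interactions of Fosb, Nr4a2 and Klf4 were log2 0.85, 0.74 and 0.57. Socs3, a cytokine-induced inhibitor of JAK kinases, and Cxcl5, a neutrophil-attracting chemokine, were lowered in both genotypes as well and less so in knockout cells, at 0.48 and 0.40. Socs3 was named after its value was seen. Jun, the AP-1 partner of Fos, differed in shape, since FGF raised it by 0.40 in knockout cells with no call in control cells (-0.02). Its interaction was 0.42 (SE 0.07; edgeR adjusted p = 0.00294).

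The EGR factors went the other way. Egr1 was at 1083 to 1157 CPM in KO+FGF, 848 to 1135 in KO, 603 to 651 in control+FGF and 463 to 474 in control. In knockout cells, where the level was higher in both conditions and the groups overlapped, the FGF change of -0.02 was not called, while FGF raised Egr1 by log2 0.41 in control cells. The interaction was log2 -0.43 (SE 0.06; edgeR adjusted p = 4.12e-04), and -0.31 with 12 libraries (edgeR adjusted p = 0.485). Egr3 was at log2 -0.61 (SE 0.13; edgeR adjusted p = 0.0146), lowered by FGF in knockout cells by 0.84 and not called in control cells.

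ERK feedback inhibitors are the phosphatases, Sprouty and Spred proteins and receptor inhibitors that the cascade induces against itself. Of 24 tested, 2 were called above 0 (Dusp1 and Spred3) and 4 below (Dusp8, Spry1, Dusp5 and Errfi1), where 0.719% and 0.262% of all genes were. The list's median was log2 -0.17, beside -0.00 for all genes. Dusp8, a phosphatase of the stress kinases JNK and p38, was at 21.6, 23 and 27.9 CPM in KO+FGF, 40.3, 44.1 and 39.2 in KO, 27.9, 27.1 and 29.1 in control+FGF, and 23.6, 26.6 and 25.3 in control. FGF lowered Dusp8 in knockout cells by 0.72 on the log2 scale, and the change in control cells, 0.16, was not called. Its interaction was log2 -0.87 (SE 0.12; edgeR adjusted p = 4.12e-04), and -0.92 with 12 libraries (edgeR adjusted p = 0.0635). Dusp5, a nuclear ERK phosphatase, was at 257 to 293 CPM in KO+FGF, 279 to 312 in KO, 138 to 148 in control+FGF and 107 to 122 in control. Its knockout groups overlapped while its control groups did not, and the interaction was log2 -0.49 (SE 0.09; edgeR adjusted p = 0.00649). Errfi1, an inhibitor of the EGF receptor, had the same shape at log2 -0.43 (SE 0.06), with an FGF change of -0.04 in knockout cells and 0.39 in control cells. Areg, the EGF receptor ligand amphiregulin, was the 1 call among 11 EGF family genes and its FGF change was also not called in knockout cells (0.00) but was a rise in control cells (0.38), an interaction of -0.37 (SE 0.08; edgeR adjusted p = 0.026).

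Spry1, an inhibitor upstream of RAS, was lowered by FGF in knockout cells by 0.68 on the log2 scale and had an interaction of -0.52 (SE 0.10; edgeR adjusted p = 0.00736). Dusp6, the cytosolic ERK phosphatase, and the Sproutys Spry2 and Spry4 had FGF changes of log2 -0.09, 0.04 and 0.00 in knockout cells, none of them called. FGF raised them in control cells by log2 0.20, 0.28 and 0.37, but their interactions of -0.29, -0.24 and -0.37 missed the threshold (edgeR adjusted p = 0.0534, 0.0976 and 0.0942). Dusp1, a nuclear phosphatase of the MAP kinases, was at 602, 670 and 652 CPM in KO+FGF, 578, 591 and 558 in KO, 147, 161 and 156 in control+FGF, and 207, 198 and 214 in control. It was 1 of 4 genes called in opposite directions, up with FGF in knockout cells by log2 0.17 and down in control cells by 0.42, with neither pair of groups overlapping. The Dusp1 interaction was log2 0.59 (SE 0.07; edgeR adjusted p = 1.20e-04), and 0.57 with 12 libraries (edgeR adjusted p = 0.0635), where its change in knockout cells was not called. The other 3 were Vegfa (0.57), an angiogenic growth factor, Slc6a6 (0.44), the taurine importer, and the linker histone gene H1f0 (-0.42). With upper-quartile scaling 2 genes were opposite, and with 12 libraries 0 were.

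**Figure D3:**
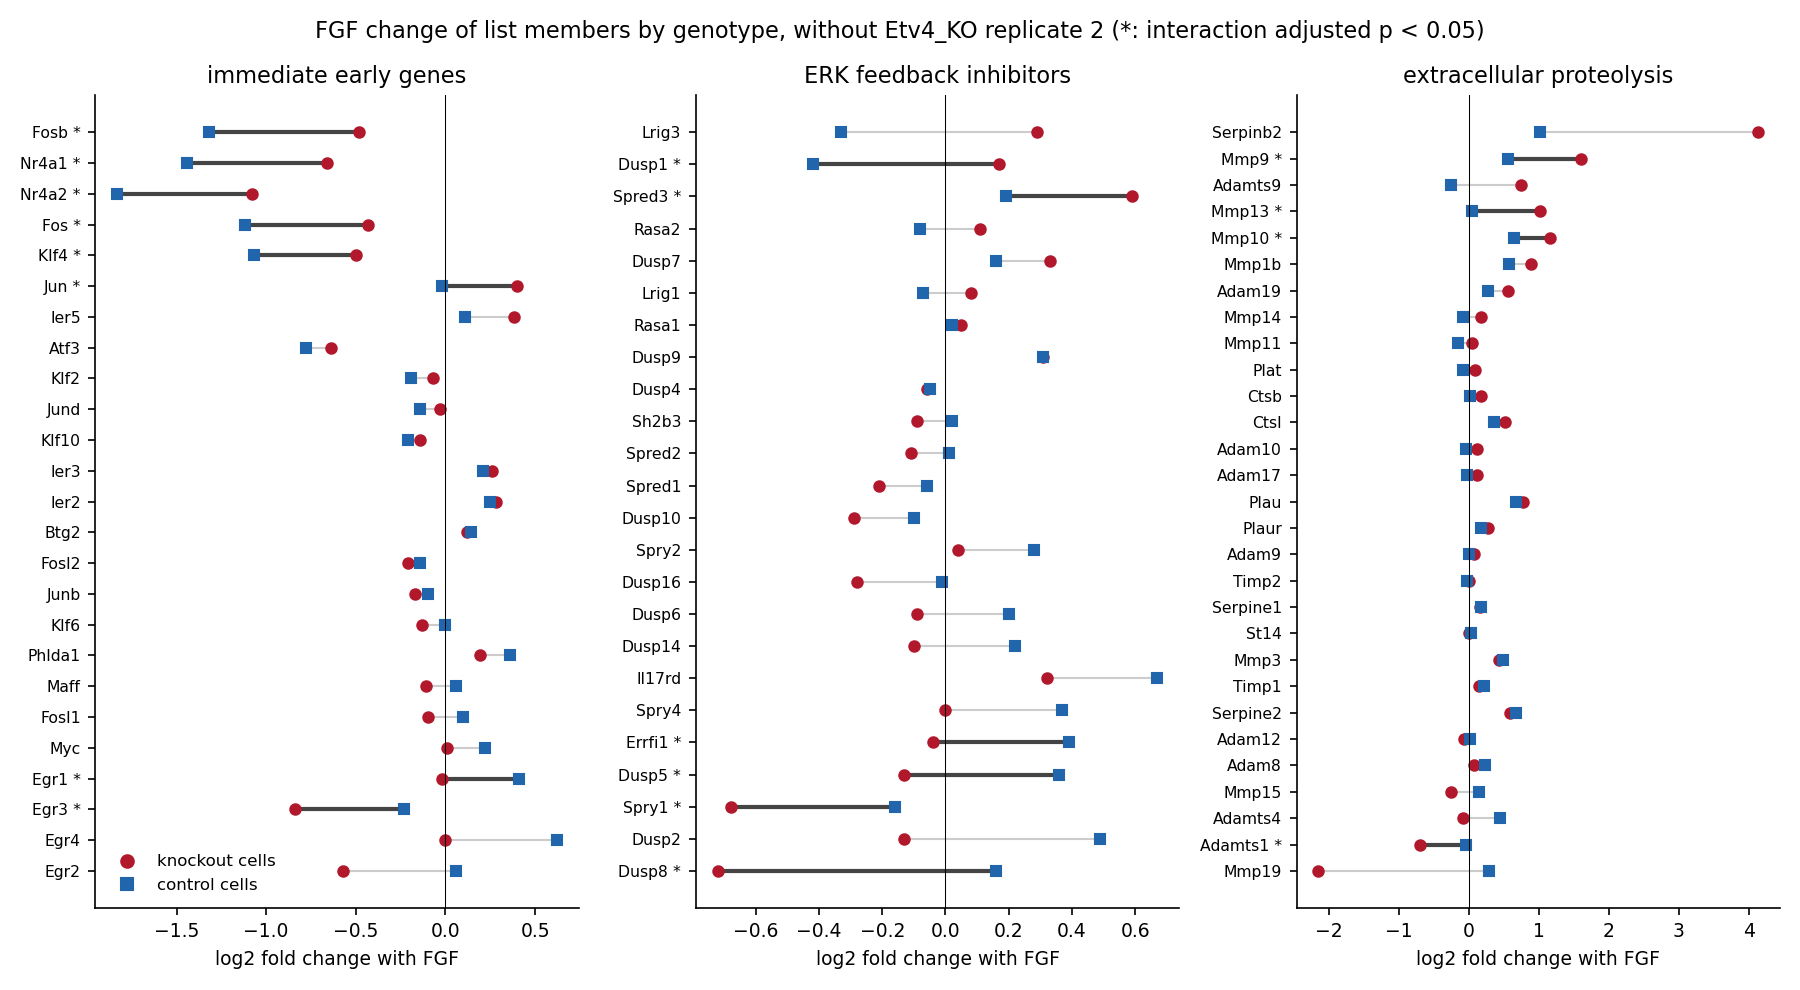
Log2 FGF change in knockout cells (red circles) and in control cells (blue squares) without Etv4_KO replicate 2, for the tested members of 3 lists ordered by interaction; dark lines and asterisks mark called interactions. Fosb, Nr4a1, Nr4a2, Fos and Klf4 are below 0 in both genotypes and lowest in control cells, Errfi1, Dusp5 and Egr1 are near or under 0 in knockout cells and above 0 in control cells, and Serpinb2 and Mmp19, with the widest gaps, are low-count genes that were not called.

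Extracellular proteases and their inhibitors gave 3 calls above 0 and 1 below among 29 tested, where 0.719% and 0.262% of all genes were called. Their median interaction was log2 0.10, beside -0.00 for all genes. Mmp10, a stromelysin that cuts matrix proteins and activates other metalloproteinases, was at 127 to 136 CPM in KO+FGF, 57.9 to 60.9 in KO, 62.2 to 65.2 in control+FGF and 37.9 to 44.8 in control. FGF raised Mmp10 in both genotypes without overlap, by log2 1.16 in knockout and 0.64 in control cells, an interaction of 0.52 (SE 0.09; edgeR adjusted p = 0.00323). The neighbouring stromelysin Mmp3 and the urokinase gene Plau were raised in both genotypes with no called interaction, at log2 -0.06 (SE 0.06) and 0.10 (SE 0.06). Mmp3 was at 648 to 664 CPM in KO+FGF, 447 to 492 in KO, 273 to 290 in control+FGF and 200 to 203 in control. Adamts1, a protease of proteoglycans, was the call below 0 at log2 -0.66 (SE 0.09; edgeR adjusted p = 2.16e-04). It was at 117 to 131 CPM in KO+FGF and 204 and 205 in Etv4_KO replicates 1 and 3, but 123 in Etv4_KO replicate 2, and at 107 to 113 in control+FGF and 104 to 121 in control. With that library the Adamts1 interaction was -0.46 (SE 0.21; edgeR adjusted p = 0.485). Of 23 genes reported elsewhere as PEA3-family targets, 4 were called above 0, the 3 metalloproteinases and Vegfa, and 0 below, beside 0.719% and 0.262% of all genes. At an unadjusted p under 0.05, 7 of these 23 were above 0 and 5 below, beside 7.28% and 6.01% (735 genes) of all genes.

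Of 20 laminin, tenascin and integrin genes, 11 were above 0 and 0 below at an unadjusted p under 0.05 without Etv4_KO replicate 2, beside 7.28% and 6.01% of all genes, and the list's median was log2 0.20. The collagen receptor subunit Itga2 and the fibronectin receptor subunit Itga5, with their shared partner Itgb1, were called above 0, at 0.42, 0.55 and 0.28. Itga5 was at 94.5 to 97.7 CPM in KO+FGF, 62.2 to 67.4 in KO, 46.7 to 51.1 in control+FGF and 43.1 to 47.6 in control. FGF raised Itga5 by log2 0.62 in knockout cells, with no call in control cells (0.07), and its interaction had SE 0.08 and edgeR adjusted p = 0.0011. The hyaluronan receptor Cd44 (0.31, and 0.50 with 12 libraries) and the hyaluronan synthase Has2 (0.51) were called too. These 2 were picked after their values were seen.

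The lists of this paragraph stand beside 0.719% of all genes called above 0 and 0.262% below. Among 19 collagen genes the calls were Col7a1, the anchoring fibril collagen, at log2 0.54 (SE 0.09; edgeR adjusted p = 0.00294), and Col6a1, a chain of the microfibrillar collagen VI, at -0.69 (SE 0.13; edgeR adjusted p = 0.00529). Col6a1 was at 7.77 to 8.70 CPM in KO+FGF, 20.3 to 23.7 in KO, 22.6 to 24.6 in control+FGF and 33.8 to 38.4 in control. FGF lowered it in both genotypes, by log2 1.29 in knockout and 0.60 in control cells. Of 28 epithelial junction genes the call was Cldn4, a tight junction claudin that FGF raised in both genotypes, by less in knockout cells (log2 -0.33, SE 0.07; edgeR adjusted p = 0.0156). Of 7 keratins it was Krt8 (-0.28, SE 0.07; edgeR adjusted p = 0.0436; -0.51 with 12 libraries), whose level in Etv4_KO replicate 2, 2305 CPM, was the highest of the 12 libraries.

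Interferon response genes had 3 calls above 0 of 23 tested and 0 below, with 9 and 0 at an unadjusted p under 0.05 and a median of log2 0.22. Of all genes 0.719% were called above 0 and 0.262% below, and 7.28% and 6.01% were at an unadjusted p under 0.05. The RNA sensor Ifih1 was at 19.1 to 20.3 CPM in KO+FGF, 10.6 to 15.3 in KO, 16.9 to 18.6 in control+FGF and 18.5 to 20.6 in control, an interaction of 0.53 (SE 0.13; edgeR adjusted p = 0.0439). Irf1, a transcription factor of the response, was not called in knockout cells (0.02) and lowered by FGF in control cells by 0.44, an interaction of 0.46 (SE 0.11; edgeR adjusted p = 0.0338). Psmb10, an immunoproteasome subunit, was the call among 19 MHC class I presentation genes, at -0.48 (SE 0.12; edgeR adjusted p = 0.0439). Of 21 hypoxia genes, Vegfa was above 0 and Bhlhe40, a transcriptional repressor, below, at log2 -0.53 (SE 0.09; edgeR adjusted p = 0.00239).

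Many lists held 0 calls by edgeR, and their counts are given at an unadjusted p under 0.05 without Etv4_KO replicate 2, where 7.28% of all genes were above 0 and 6.01% below. Among 15 FGF ligands, receptors and co-receptors 5 were above and 0 below, with Fgfr1 at log2 -0.20 (SE 0.32) and Fgfr2 at 0.20 (SE 0.19). Among 25 genes of the integrated stress and unfolded protein response 10 were above and 1 below, and Trib3, a pseudokinase of that response, was at 0.72 (SE 0.22; edgeR adjusted p = 0.137). Among 43 cytosolic ribosomal protein genes 0 were above and 9 below. Their median interaction was log2 -0.35 with 12 libraries and -0.14 with 11, and that of 28 nuclear respiratory chain genes -0.33 and -0.16, beside -0.02 and -0.00 for all genes. The S phase, mitosis, glycolysis, Wnt, Notch, TGF-beta, cholesterol, heat shock and p53 lists held 0 calls in both fits. At the unadjusted threshold, 0 of 27 S phase genes were above 0 and 6 below. These counts were 0 and 4 of 30 for mitosis, and 0 and 5 of 18 for glycolysis. For Wnt they were 0 and 1 of 12, for Notch 2 and 1 of 10, and for TGF-beta 4 and 3 of 20. For cholesterol they were 2 and 0 of 24, for heat shock 0 and 3 of 20, and for p53 1 and 4 of 20.

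The interaction also varied with exon length and GC content, with which the deviations of Etv4_KO replicate 2 correlated. Control_FGF replicate 2 deviated from its group in the same direction, with a Spearman rho of -0.47 for exon length and 0.27 for GC content, and ribosomal protein genes took 6.58% of its counts, against 5.82% and 5.89% in control_FGF replicates 1 and 3. The Spearman correlation of the interaction across genes was 0.45 with exon length and -0.35 with GC content in the fit of 12 libraries, and 0.21 and -0.06 without Etv4_KO replicate 2. Median exon length was 5143 bases for the 88 genes above 0, 2952 for the 32 below and 4372 for all tested. The nuclear RNAs Malat1 and Neat1, named after their values were seen, were called above 0 at log2 0.69 (SE 0.15) and 0.77 (SE 0.18) without Etv4_KO replicate 2. Malat1 was at 814 to 1158 CPM in KO+FGF, 519 to 675 in KO, 410 to 585 in control+FGF and 507 to 603 in control. After each library's trend with length and GC content was removed, 16 genes above 0 and 4 below were called with 12 libraries, and 139 and 86 with 11, beside 88 and 32 without the correction. Mmp9 and Mmp13 were at log2 1.05 and 1.06 after that correction with 12 libraries, both called. What part length, GC content or RNA quality has in the other calls was not tested. Nor was it tested for the counts and medians of the gene lists.

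**Figure D4:**
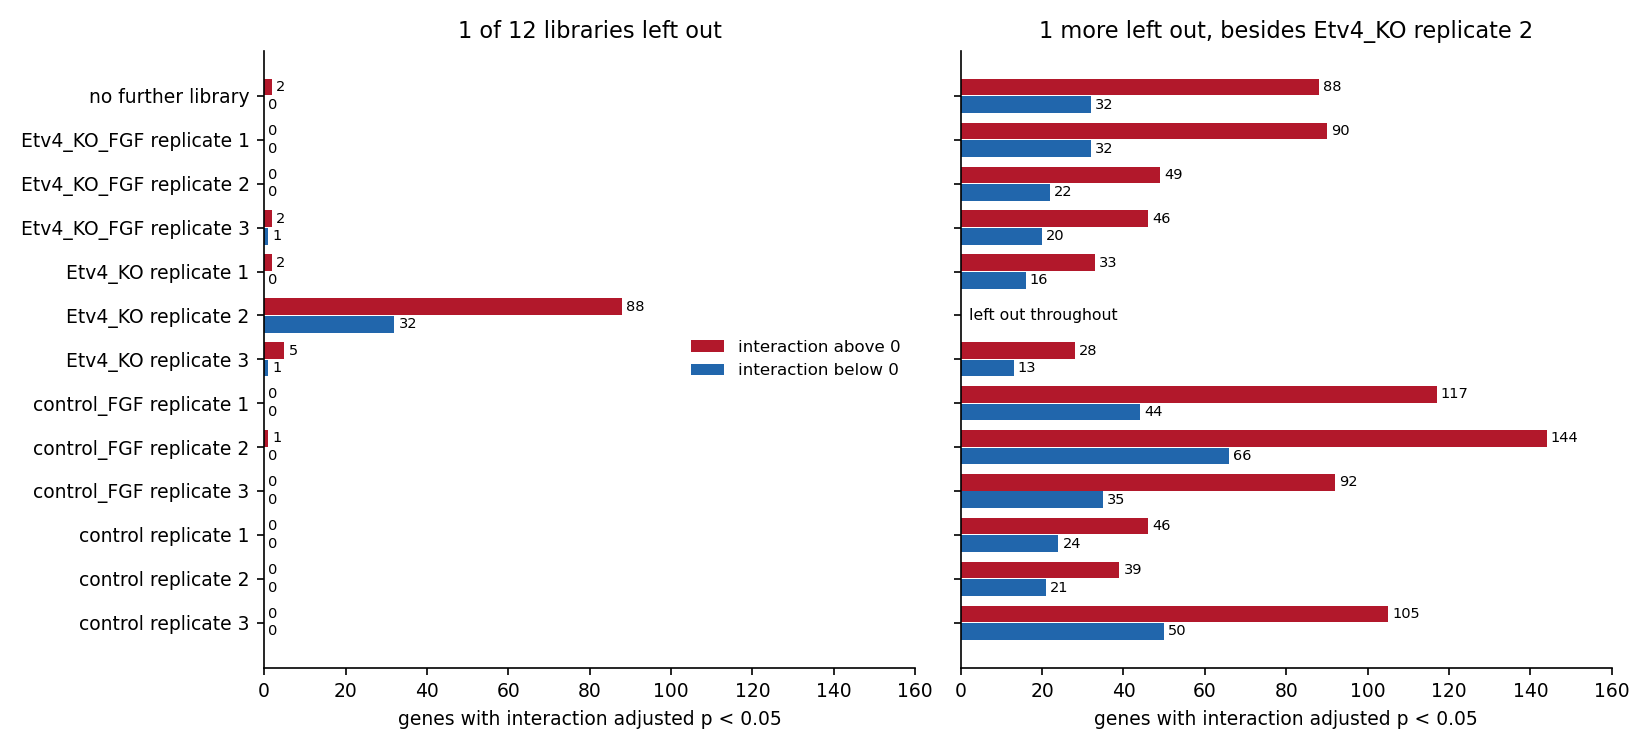
Number of genes with a called interaction when 1 library is left out of the fit of 12 (left) or of the fit without Etv4_KO replicate 2 (right); red bars are genes above 0 and blue bars genes below 0. On the left the count is at most 6 except without Etv4_KO replicate 2, and on the right it stays above 0 in every row.

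The counts without Etv4_KO replicate 2 moved with each further library left out, between 28 and 144 genes above 0 and between 13 and 66 below. Without Etv4_KO replicate 1 or 3, which leaves the group at 1 library whose spread is assumed to be that of the other groups, 33 and 28 genes were above 0 and 16 and 13 below. Without Etv4_KO_FGF replicate 2 or 3, or control replicate 1 or 2, the genes above 0 were 49, 46, 46 and 39, and without control_FGF replicate 2 they were 144, with 66 below. Of the 120 genes, 28 were called in all 21 further settings of that fit, and all 120 kept their sign. Those settings reuse the libraries from which the 120 were called, so they are not an independent check. The 28 included Mmp9, Mmp13, Mmp10, Slc7a11, Fos, Fosb, Nr4a1, Klf4, Jun, Egr1, Dusp1, Dusp8, Errfi1, Itga5, Has2, Col7a1, Col6a1, Adamts1, Bhlhe40 and Sox9.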

How the data were processed

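RNA was sequenced from 12 libraries made with a stranded mRNA kit, per the labels' protocols. The submitters' processing notes name FastQC 0.11.9, STAR 2.7.9a, featureCounts and the builds hg38 and mm10; no source used here gives the annotation or strand setting, so overlapping and near-identical genes are uncertain. The authors deposited raw counts of 31017 gene symbols, 13134 of them without a count.

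Counts were filtered with filterByExpr, TMM-scaled and fitted in R 4.3.3 with group means, and the interaction was tested by quasi-likelihood in edgeR 4.0.16, on 8 residual degrees of freedom (7 without Etv4_KO replicate 2). Unless stated otherwise each adjusted p is from this test. SE is the log2 value divided by the square root of F. No 2 replicates agreed within sampling noise (chi-square per degree of freedom 3.26 or higher). The members and 33 gene lists were chosen with earlier results of these data known. Named genes are Etv4, Etv1, Etv5, the largest called interactions in each direction whose mean log2 CPM was 1 or more, up to 3 genes per list by smallest p, and others where stated or where called in a list; 1 named gene is not reported here. Coordinates are mm10 from GENCODE vM21, and the promoter is from RefSeq (GRCm38.p6). Alternatives were DESeq2 1.42.0, limma 3.58.1 voom, upper-quartile and RLE scaling, other filters, a replicate block, a length and GC correction and leaving out libraries; their use on the 11 libraries was chosen after seeing the data. The test was checked on simulated counts.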

Additional observations from a re-analysis of the deposited data

Results flagged for a closer look

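Each of the following interactions passed the test of the difference in FGF change between knockout and control cells (edgeR adjusted p under 0.05), and values are log2. With all 12 libraries these were Mmp9 at 0.95 and Mmp13 at 1.08.

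Without Etv4_KO replicate 2, genes above 0 were Slc7a11 at 1.65, Xaf1 at 1.60, Rgs2 at 1.05 and Ss18l1 at 1.03. Signalling and early response genes above 0 were Nr4a1 at 0.78, Fos at 0.69, Dusp1 at 0.59, Vegfa at 0.57 and Klf4 at 0.57. Matrix, adhesion and immune genes above 0 were Itga5 at 0.55, Col7a1 at 0.54, Ifih1 at 0.53, Mmp10 at 0.52 and Cxcl5 at 0.40. Genes below 0 were Mgp at -2.04, Igfbp7 at -0.93, Gas2 at -0.90, Dusp8 at -0.87, Col6a1 at -0.69, Bhlhe40 at -0.53, Dusp5 at -0.49, Psmb10 at -0.48, Osgin1 at -0.47, Areg at -0.37, Cldn4 at -0.33 and Krt8 at -0.28. With all 12 libraries these genes kept their sign and missed the threshold.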

How the results depend on the processing

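With all 12 libraries, the 2 genes above 0 and 0 below became 42 and 24 with DESeq2, 3 and 1 with limma-voom, 145 and 74 (5 of them with opposite FGF directions) with sample quality weights, and 7 and 1 with no filter. The length and GC correction gave 16, 4 and 1 opposite, and with a replicate block as well 9, 2 and 1. Leaving out 1 library gave 0 to 88 above 0, 0 to 32 below and 0 to 4 opposite. Without Etv4_KO replicate 2, the 88, 32 and 4 opposite became 150 and 70 with DESeq2, 210 and 111 with sample quality weights, 181, 100 and 12 with no filter, and 139 and 86 with the length and GC correction. With that correction and a replicate block they were 154, 91 and 7, and upper-quartile scaling gave 2 opposite. Leaving out 1 further library gave 28 to 144, 13 to 66 and 0 to 6. The cause of these moves was not tested. Mmp9 stayed between log2 0.90 and 1.05 and Mmp13 between 0.96 and 1.15 in these settings of the 12 libraries. Etv4, at -0.16, was -0.24 to 0.01 when 1 library was left out, highest without Etv4_KO replicate 2, and 0.00 with sample quality weights. Etv1, at 0.16, was -0.01 to 0.26 when 1 library was left out, with -0.01 without Etv4_KO replicate 2, -0.04 with those weights and -0.11 with the length and GC correction with or without the block; of 118 genes followed, only these 2 turned sign.

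Replicate numbers were not taken as pairs over the 4 groups, since most same-numbered pairs did not deviate together. Of 18 pairs, 6 had r over 0.1 (range -0.18 to 0.57). However, 10 of 18 correlated best with their own number among 3 replicates, which is not a reason against pairing. Between KO and control+FGF all 3 pairs were over 0.1 (0.44, 0.57 and 0.19 for replicates 1, 2 and 3), and 2 of 3 correlated best with their own number. These groups enter the interaction with the same sign, so a deviation they share adds up in it and does not cancel. The fit without a block takes their libraries as independent, and its SE may then be too small. The replicate block gave 3 genes above 0 and 0 below with 12 libraries, and 104, 32 and 3 opposite with 11. The 2 or 3 libraries per group limit the precision: the median SE of an interaction was log2 0.16 with 12 libraries and 0.11 with 11.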
